A study of Homo sapiens with 18 samples.

Results

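The genes described here are the well-detected members of the ZNF zinc finger family, taken as every gene whose symbol in the platform annotation is ZNF followed by a number alone and whose probe gave a detection p under 0.01 on all 18 bead arrays. The rule selected 151 genes from the 325 such ZNF genes named on the array, with the brightest probe standing for each gene. The detection values chose the members, so their presence on every array is a description, as is their level. Most ZNF proteins bind DNA through arrays of C2H2 zinc fingers, and a large share, found in clusters on chromosome 19, also carry a KRAB domain. The KRAB domain recruits the corepressor TRIM28 and with it the histone methyltransferase SETDB1, HP1 proteins and histone deacetylases, which silence retroelements and some genes. Other ZNF proteins are unrelated in function, and include ribosome assembly factors, a ubiquitin ligase and a LIM domain protein.

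RNA was taken from 2 established Burkitt lymphoma lines of B cell origin, DG75, which is free of Epstein-Barr virus, and Raji, which harbours it. Cells were given 50 µM Bay-11 or 75 µM TPCK for 1 h, or no agent. Bay-11 is an inhibitor used against the phosphorylation of IkB, the protein that holds NF-kB in the cytoplasm. TPCK, an alkylating inhibitor of serine proteases of the chymotrypsin kind, is likewise used against NF-kB activation. The 6 groups, each of 3 arrays, were DG75 with Bay-11, DG75 with TPCK, untreated DG75, Raji with Bay-11, Raji with TPCK and untreated Raji. For DG75 the TPCK treatment is taken from sample titles and column names, since the series' design text mentions it for the other line alone. Each line stands for 1 patient's tumour, and no genetic change is recorded for either. The labels leave unsaid whether the 3 arrays of a group were separate cultures, so a p-value reflects only how far these samples scatter, possibly for technical reasons.

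Between 13072 and 15903 probes were detected per array. Arrays are named by the number in the column names of the signal table, whose meaning is not stated. Untreated arrays carry numbers 13 to 18 and treated arrays 1 to 12, so an effect tied to that numbering and the treatment cannot be told apart. Of 8 listed B cell markers 6 had a named probe, and these 6, CD79A, CD79B, MS4A1, CD22, CD74 and BLK, were detected on every array. Of the T cell list only CD3D was named among the probes, detected on the 9 Raji arrays and on no DG75 array. Of the monocyte list 3 of 5 were named, CD14 on all 18 arrays, LYZ on 15 and CSF1R on 10. Array 7 (DG75 with TPCK) held 687 probes detected on no other array, and array 10 (DG75 with Bay-11) deviated most widely over all genes. For some of the results that rest on them, values without both are also given.

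Of the 325 ZNF genes, 7 were detected on no array, 27 on 1 or 2 arrays, 140 on 3 to 17 arrays and 151 on all 18. Per array, 233 to 265 ZNF genes were detected in DG75 with Bay-11, 228 to 258 in DG75 with TPCK and 224 to 233 in untreated DG75, and 232 to 243 in Raji with Bay-11, 240 to 255 in Raji with TPCK and 196 to 229 in untreated Raji. The 151 are 46.5% of ZNF genes detected on every array, against 56.7% of the 12696 genes named on the array. Just inside the threshold stood ZNF493, ZNF182, ZNF438, ZNF76 and ZNF408, with a highest detection p of 0.00808, 0.00804, 0.00804, 0.00405 and 0.00269. Just outside it stood ZNF784, ZNF202, ZNF654, ZNF28 and ZNF419, each missed on 1 array, with 0.0109, 0.0134, 0.0134, 0.0162 and 0.0162. The highest detection p was 0 for 142 of the 151. A gene that a treatment silenced would have failed the rule, so full loss of a ZNF transcript could not appear among these genes.

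Of the 151 genes, 62 (41.1%) lie on chromosome 19, against 762 (7.13%) of the 10688 tested genes with a chromosome. Chromosome 7 followed with 13 genes and chromosome 16 with 10. The average level of a member over all arrays, in log2 normalised signal, ran from 5.43 to 12.09 with a median of 7.18. The median was 8.21 over the 7164 tested genes detected on every array and 7.10 over all 10697 tested genes. Signals of different probes are not on a common scale, so these medians describe probes and not amounts of transcript. The median SD within a group was 0.227 for the ZNF genes, against 0.196 for genes detected on every array and 0.226 for all tested genes.

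Sequences upstream of 3 members are printed because these were the ones called in more than 1 comparison of the treated groups. ZNF800 is a zinc finger protein described in human gut organoids as a repressor of endocrine cell fate. ZNF594 and ZNF101 are C2H2 zinc finger proteins, and ZNF101 carries a KRAB domain. Each window runs from 250 bases before to 50 bases after the gene start of RefSeq, GRCh38.p14, 5′ to 3′ on the gene's strand, with each CG dinucleotide in capitals. The ZNF800 window is chr7:127392659-127392958 on the minus strand, the ZNF594 window chr17:5191819-5192118 on the minus strand and the ZNF101 window chr19:19668589-19668888 on the plus strand.
ZNF800: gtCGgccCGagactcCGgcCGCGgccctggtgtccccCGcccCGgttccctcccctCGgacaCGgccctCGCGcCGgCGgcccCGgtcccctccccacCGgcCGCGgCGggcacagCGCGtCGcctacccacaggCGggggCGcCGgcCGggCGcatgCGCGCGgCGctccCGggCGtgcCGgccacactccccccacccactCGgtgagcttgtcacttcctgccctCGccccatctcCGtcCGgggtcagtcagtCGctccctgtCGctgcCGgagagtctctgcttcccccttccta
ZNF594: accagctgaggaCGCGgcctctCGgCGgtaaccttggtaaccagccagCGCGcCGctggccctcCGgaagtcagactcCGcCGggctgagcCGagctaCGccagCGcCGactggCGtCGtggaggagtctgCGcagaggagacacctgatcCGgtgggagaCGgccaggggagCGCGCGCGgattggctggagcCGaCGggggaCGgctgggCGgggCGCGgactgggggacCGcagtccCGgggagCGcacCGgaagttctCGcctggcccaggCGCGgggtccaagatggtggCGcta
ZNF101: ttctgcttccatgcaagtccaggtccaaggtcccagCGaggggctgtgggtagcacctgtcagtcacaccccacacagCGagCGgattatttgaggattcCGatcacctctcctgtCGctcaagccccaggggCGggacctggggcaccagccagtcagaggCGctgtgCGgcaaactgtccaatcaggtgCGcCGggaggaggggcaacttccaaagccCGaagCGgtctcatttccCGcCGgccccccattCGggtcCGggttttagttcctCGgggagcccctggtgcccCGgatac

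These windows held 40, 37 and 18 CG dinucleotides, with a GC content of 77.3%, 72.7% and 63.7%. Over the 130 members with a window in the table the median was 22.5 CG dinucleotides and 62.2% GC, against 26 and 64.7% over 8747 tested genes. The ZNF800 and ZNF594 windows are thus denser in CG than the typical member, and the ZNF101 window is sparser. The NF-kB consensus, searched on both strands because Bay-11 is used against that pathway, matched 8 of 130 member windows (6.15%), against 6.54% of the tested genes' windows. Of the 3 printed windows only ZNF101 held it, on the opposite strand, its first base 25 bases past the gene start. TGANTCA, an AP-1 type motif, was in 7.69% of member windows and 4.32% of the tested genes' windows. CACGTG, an E-box, was in 7.69% and 10.6%. A match describes letters only, and none of these shares was tested.

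In the 4 comparisons of a treatment with its untreated line, 6 of the 151 ZNF genes changed in at least 1, and 145 were called in none. A gene is called when its Benjamini-Hochberg adjusted p, over 10697 genes in a limma model of 6 group means, is under 0.05. In Raji with Bay-11, ZNF594 rose and ZNF165, ZNF101 and ZNF519 fell. In Raji with TPCK, ZNF594 rose and no ZNF gene fell. In DG75 with Bay-11, ZNF581 rose and ZNF800 fell, and in DG75 with TPCK, ZNF800 fell. RNA came from whole cultures, in which fewer cells holding a transcript and less of it per cell cannot be told apart.

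These calls came from few genes, and the share called was above that of all genes in each of the 4 comparisons, with no test made of that. In Raji with Bay-11, 4 of 151 ZNF genes (2.65%) were called, 1 higher and 3 lower, where 1.51% of all tested genes were called, 0.879% higher and 0.626% lower. In Raji with TPCK it was 1 of 151 (0.662%), higher, against 0.439% of all genes, 0.234% higher and 0.206% lower. In DG75 with Bay-11 it was 1 higher and 1 lower (1.32%), against 0.617%, 0.439% higher and 0.178% lower. In DG75 with TPCK it was 1 lower (0.662%), against 0.495%, 0.168% higher and 0.327% lower. At most 4 of 151 genes are behind any of these shares, so they say little beyond the genes themselves. The counts moved with single arrays. In Raji with Bay-11 the count was 0 without array 4, 1 without array 6, 16 or 17, 2 without array 18 and 5 without array 5. In Raji with TPCK it was 0 without array 1, 2, 16 or 17. In DG75 with Bay-11 it was 16 without array 12, with 11 higher and 5 lower, 1 without array 14 and 3 without array 11. Without arrays 7 and 10, 11 ZNF genes were called in Raji with Bay-11, 6 higher and 5 lower. Shares of all genes are not given for these counts with arrays left out, so they are not set against other genes. In the deposited processed values, which cover 8582 of the genes, 54 ZNF genes (35.8%) were called in Raji with Bay-11, against 19.5% of genes, and 13 (8.61%) in Raji with TPCK, against 2.12%.

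ZNF594 was higher after both compounds in Raji. Its log2 signals were 7.08, 7.23 and 7.55 with Bay-11 and 7.40, 7.59 and 7.23 with TPCK, against 6.04, 6.40 and 6.60 in untreated Raji, so all 6 treated arrays lay above the 3 untreated ones. The change was 0.94 ± 0.19 (log2, SE) with Bay-11, limma adjusted p = 0.0266, and 1.06 ± 0.19 with TPCK, adjusted p = 0.0173. The 2 comparisons share the untreated Raji arrays. In DG75 the signals were 7.69, 7.30 and 7.01 with Bay-11 and 6.75, 7.18 and 7.06 with TPCK, against 6.80, 6.54 and 6.66 untreated. The DG75 differences were 0.66 ± 0.19 (adjusted p = 0.106) and 0.33 ± 0.19 (adjusted p = 0.548), neither past the threshold. The Bay-11 call was lost without array 4, 6, 16 or 17 (adjusted p = 0.0535, 0.176, 0.113 and 0.081) and the TPCK call without array 1, 2, 16 or 17 (0.0735, 0.127, 0.112 and 0.0605), while the change stayed between 0.79 and 1.19. It was called under each of the other 12 settings in both comparisons.

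ZNF800 fell in DG75 after both compounds. Signals were 7.76, 8.17 and 7.94 with Bay-11 and 8.19, 8.36 and 8.05 with TPCK, against 8.89, 8.90 and 8.83 in untreated DG75, with no overlap between treated and untreated arrays. ZNF800 fell by 0.91 ± 0.14 with Bay-11, adjusted p = 0.00536, and by 0.67 ± 0.14 with TPCK, adjusted p = 0.0422, in comparisons that share the untreated arrays. In Raji it was 7.78, 7.85 and 7.41 with Bay-11 and 8.42, 8.52 and 8.26 with TPCK, against 8.16, 8.25 and 8.37 untreated. Raji Bay-11 arrays were thus low and TPCK arrays were not, with differences of -0.58 ± 0.14 (adjusted p = 0.0504) and 0.14 ± 0.14 (adjusted p = 0.999). Directly compared in Raji, TPCK stood above Bay-11 by 0.72 ± 0.14, adjusted p = 0.0385. The DG75 Bay-11 call held when each of the 6 arrays was left out in turn, and without arrays 7 and 10 (-0.82, adjusted p = 0.0281). It was lost when only the arrays of the groups compared entered the fit (adjusted p = 0.319) and under both other scalings, with -0.51 (0.155) under median centring and -0.51 (0.24) without normalisation. The DG75 TPCK call was lost without any 1 of arrays 7, 8, 9, 13, 14 and 15 (adjusted p of 0.0519 to 0.195) and without arrays 7 and 10 (0.0609). It was also lost under median centring (-0.32, adjusted p = 0.418), without normalisation (-0.24, 0.535), without the filter on low signals (0.0502) and in a fit on the arrays compared alone (0.147).

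**Figure D1:**
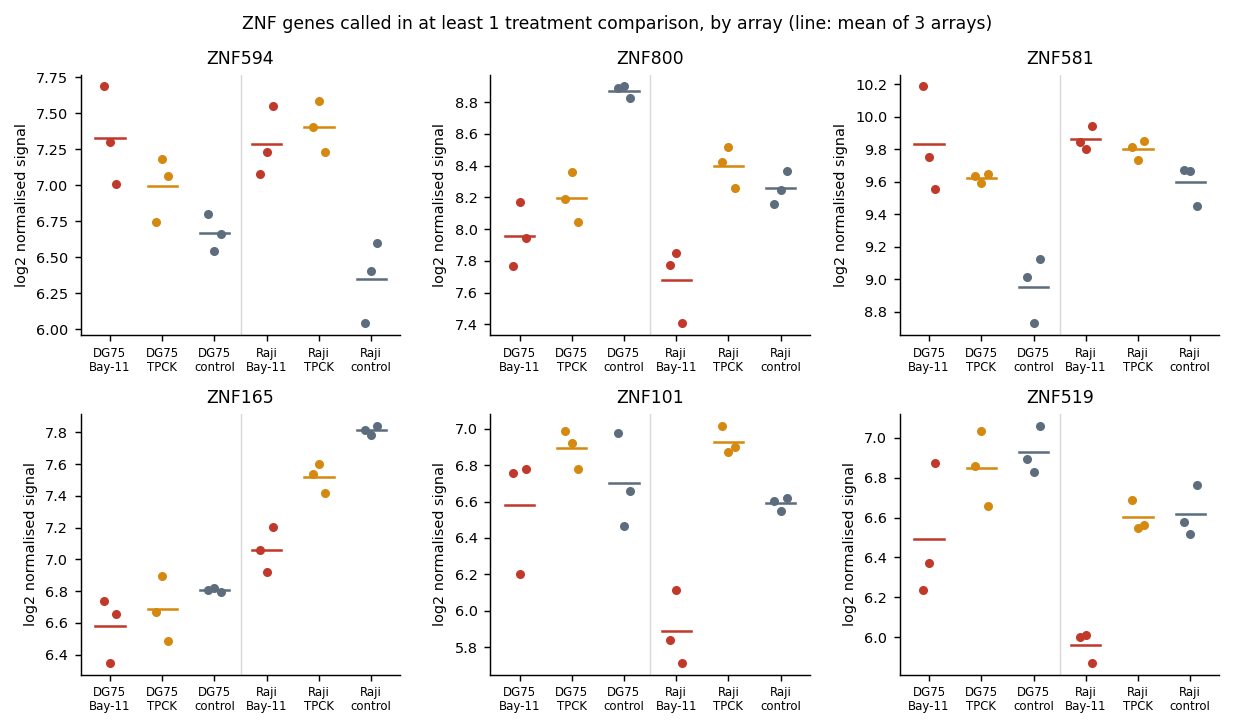
Log2 normalised signal (vertical axis) of the 6 ZNF genes called in at least 1 treatment comparison, 1 point per array and a line at the mean of 3 arrays, with DG75 groups left of Raji groups and treated groups left of untreated. ZNF594 lies above untreated Raji on all 6 treated Raji arrays, and ZNF800 lies below untreated DG75 on all 6 treated DG75 arrays.

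ZNF581, a small zinc finger protein encoded on chromosome 19, was higher in treated DG75. Its signals were 10.19, 9.75 and 9.55 with Bay-11 and 9.64, 9.59 and 9.65 with TPCK, against 9.01, 8.73 and 9.12 untreated, and no treated array overlapped the untreated ones. The change was 0.88 ± 0.15 with Bay-11, adjusted p = 0.011, and 0.67 ± 0.15 with TPCK, adjusted p = 0.0546, just short of the threshold. Without arrays 7 and 10 both were called, at 0.70 (adjusted p = 0.0337) and 0.66 (adjusted p = 0.0322). The Bay-11 call was lost without array 14 (adjusted p = 0.0743), without normalisation between arrays (1.31, adjusted p = 0.0529) and in a fit on the arrays compared alone (0.419). In Raji the differences were 0.26 ± 0.15 with Bay-11 (adjusted p = 0.343) and 0.20 ± 0.15 with TPCK (adjusted p = 0.999).

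The next largest differences in DG75 missed the threshold. With Bay-11, ZNF200 (0.76 ± 0.18, adjusted p = 0.0687) and ZNF384 (0.69 ± 0.27, 0.195) were the next on the high side, and ZNF684 (-0.54 ± 0.21, 0.193) and ZNF24 (-0.51 ± 0.16, 0.143) on the low side. With TPCK, ZNF692 (0.59 ± 0.21, adjusted p = 0.293) and ZNF485 (0.54 ± 0.24, 0.393) stood on the high side, and ZNF791 (-0.62 ± 0.21, 0.251) and ZNF670 (-0.56 ± 0.20, 0.283) on the low side.

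The 3 genes that fell in Raji with Bay-11 were low on all 3 of those arrays. ZNF165, a SCAN domain zinc finger protein normally found mainly in testis, gave 7.06, 6.92 and 7.20 with Bay-11, against 7.81, 7.78 and 7.84 untreated, and fell by 0.75 ± 0.13, adjusted p = 0.0122. ZNF101 gave 5.84, 6.11 and 5.71, against 6.60, 6.55 and 6.62, and fell by 0.70 ± 0.16, adjusted p = 0.0449. ZNF519, a KRAB zinc finger protein, gave 6.0, 6.01 and 5.87, against 6.58, 6.52 and 6.76, and fell by 0.66 ± 0.15, adjusted p = 0.0441. None of the 3 groups of Bay-11 values overlapped its untreated values. With TPCK in Raji, ZNF165 differed by -0.29 ± 0.13 (adjusted p = 0.662), ZNF101 by 0.34 ± 0.16 (0.775) and ZNF519 by -0.02 ± 0.15 (0.999). Without array 4 none of the 3 was called (adjusted p = 0.0512, 0.152 and 0.115). ZNF165 was called on leaving out any other array. ZNF101 was called on leaving out array 5 alone (0.034), and ZNF519 on leaving out none (0.0581 to 0.219). Of the 12 other settings, ZNF165 was called under 10, and ZNF101 and ZNF519 under 7 each.

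These falls depend on the scaling between arrays. Raw signals were mostly higher on treated than on untreated arrays. The raw signal averaged over probes was 208.5 to 298.4 in DG75 with TPCK and 209.9 to 273.3 in DG75 with Bay-11, against 182.1 to 235.1 in untreated DG75. In Raji it was 242.6 to 282.2 with TPCK and 205.9 to 256.4 with Bay-11, against 171.5 to 201.6 untreated. With median centring in place of quantile normalisation the median of all genes moved to 0.33 in Raji with Bay-11, 0.55 in Raji with TPCK, 0.34 in DG75 with Bay-11 and 0.30 in DG75 with TPCK. With no normalisation it was 0.39, 0.66, 0.35 and 0.39. ZNF165, ZNF101 and ZNF519 in Raji with Bay-11 then differed by -0.25, -0.25 and -0.21 under median centring and by -0.19, -0.19 and -0.15 without normalisation, none called, so their falls are falls relative to other genes. Under these 2 scalings 30 and 28 ZNF genes (19.9% and 18.5%) were higher and 0 lower in Raji with Bay-11, where 6.81% and 5.98% of all genes were called. In Raji with TPCK it was 89 and 114 higher (58.9% and 75.5%) and 0 lower, where 30.6% and 47.3% of all genes were called. In DG75 it was 7 and 0 higher with Bay-11 (4.64% and 0%, against 2.53% and 0.0935% of all genes), 0 and 0 with TPCK (against 0.206% and 0.122%), and none lower. The shares of all genes under these 2 scalings hold calls in either direction. The part of the higher raw signal in these counts was not tested.

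TPCK and Bay-11 were also set against each other within each line. In Raji, ZNF101 and ZNF800 were higher with TPCK (2 of 151, 1.32%, none lower), where 0.271% of all genes were called, 0.122% higher and 0.15% lower. ZNF101 gave 7.02, 6.87 and 6.90 with TPCK, against 5.84, 6.11 and 5.71 with Bay-11, a difference of 1.04 ± 0.16 (adjusted p = 0.00782). The 2 groups stood apart by more than the spread of either. ZNF519 (0.64 ± 0.15, adjusted p = 0.1) and, in the other direction, ZNF577 (-0.65 ± 0.22, adjusted p = 0.239), ZNF786 (-0.59 ± 0.25, 0.325) and ZNF549 (-0.59 ± 0.27, 0.361) had the next largest differences. The ZNF101 call was lost without array 1, 4 or 6 (adjusted p = 0.0589, 0.0559 and 0.0734). The ZNF800 call was lost without array 1, 2, 3, 4 or 6 (0.24, 0.232, 0.0589, 0.101 and 0.289). It was also lost under median centring (adjusted p = 0.236), without normalisation (0.409), in a fit on the arrays compared alone (0.0752) and in the deposited processed values (0.0557, and 0.0568 with the replicate block), and the ZNF101 call was lost without normalisation (0.0878).

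In DG75, 0 of 151 ZNF genes were called between TPCK and Bay-11 by limma, with 13 at an unadjusted p under 0.05, where 0.187% of all genes were called, 0.028% higher and 0.159% lower. The members' median difference was -0.073, against -0.051 over all genes. Without arrays 7 and 10 it turned to 0.044, against -0.008 over all genes. ZNF83 differed most, with a mean of 6.97 ± 0.04 with TPCK and 7.78 ± 0.44 with Bay-11 (SD, n = 3 each), a difference of -0.81 ± 0.18 (adjusted p = 0.115). ZNF24, a SCAN domain repressor, gave 6.91, 6.66 and 7.12 with TPCK, against 5.97, 6.51 and 6.47 with Bay-11 (0.58 ± 0.16, adjusted p = 0.299). Next came ZNF14 (0.40 ± 0.28, adjusted p = 0.58) and ZNF519 (0.35 ± 0.15, 0.451) on the high side and ZNF564 (-0.59 ± 0.26, 0.451) and ZNF823 (-0.57 ± 0.20, 0.401) on the low side, and none of these 6 reached the threshold. Of 8 fibroblast and epithelium markers, 1 to 7 were detected per array in DG75 with TPCK, against 0 in DG75 with Bay-11 and 0 to 1 in untreated DG75. COL1A2, COL3A1, SCGB2A2, KRT8 and KRT19 were each detected on 1 of the 18 arrays, so the count of 7 rests on 1 array. In each Raji group 1 to 2 were detected per array. The summed signal of the 2 tested markers was 52.5 to 949.1 in DG75 with TPCK. It was 40.7 to 46.5 in DG75 with Bay-11 and 43.2 to 64.4 in untreated DG75. In Raji it was 137 to 162.7 with Bay-11, 133.7 to 142.3 with TPCK and 140.1 to 143.6 untreated. The part of these markers in the differences was not tested.

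Beyond single genes, the members as a group stood slightly higher in treated Raji. With TPCK the median change of the 151 genes was 0.128 on the log2 scale, with 107 of them (70.9%) above 0, against a median of 0.014 and 53.3% above 0 over all 10697 genes. With Bay-11 the median was 0.103, with 91 (60.3%) above 0, against 0.006 and 51% over all genes. In DG75 the medians were 0.046 with Bay-11 (86 above 0) and 0.005 with TPCK (76 above 0), against 0.051 and 0.017 over all genes. The DG75 Bay-11 median was -0.037 without array 10 and 0.177 without array 11, and the DG75 TPCK median ran from -0.046 to 0.018 on leaving out 1 array. The Raji Bay-11 median was 0.064 without array 6, and the Raji TPCK median stayed between 0.094 and 0.161. Both Raji medians are taken against the same untreated Raji arrays. The group medians are descriptions, and no test was made of them.

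Array by array, the median difference from the mean of untreated Raji was 0.17, 0.15 and 0.10 on the TPCK arrays and 0.06, 0.05 and 0.17 on the Bay-11 arrays. Over all genes detected on 18 arrays it lay between -0.01 and 0.02 on these 6 arrays. In DG75 it was -0.04, 0.08 and -0.04 with TPCK and 0.25, -0.09 and 0.03 with Bay-11. All 6 treated Raji arrays lay above 0, and the treated DG75 arrays lay on both sides of it, with array 10 highest and array 11 lowest. The distance of the members' median from that of all genes ran from 0.092 to 0.177 in Raji with TPCK and 0.078 to 0.203 in Raji with Bay-11 over the settings tried, the 2 other scalings included.

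**Figure D2:**
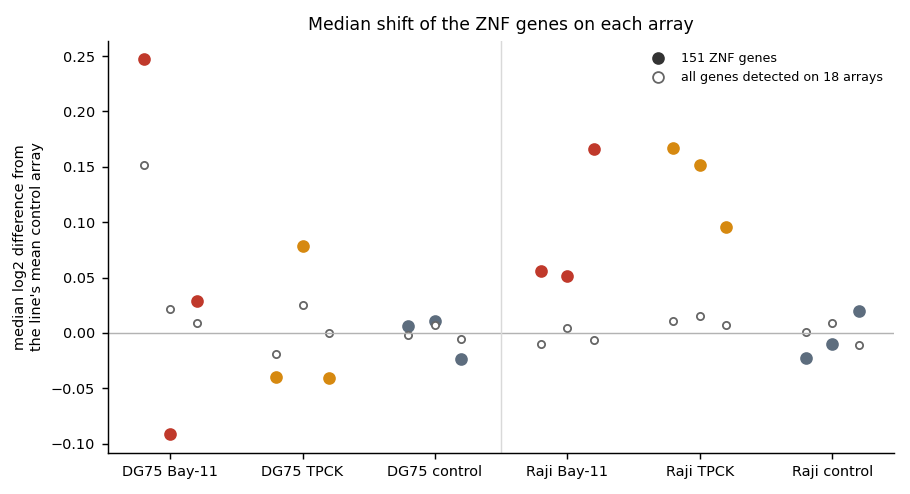
Median log2 difference of each array from the mean untreated array of its line (vertical axis), for the 151 ZNF genes (filled) and for all genes detected on 18 arrays (open). The 6 treated Raji arrays sit between 0.05 and 0.17 for the ZNF genes, above the open points, and the DG75 arrays do not share 1 direction.

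In Raji with TPCK the median was 0.128 for the 75 dimmer members and 0.127 for the 76 brighter ones, against 0.014 for the 2795 other genes detected on every array whose levels lay in the members' middle range. In Raji with Bay-11 it was 0.083 for the dimmer and 0.144 for the brighter members, against 0.008 for those other genes. In Raji with TPCK the 62 members on chromosome 19 had a median of 0.161, with 46 above 0. The 89 elsewhere had 0.067, with 61 above 0. In Raji with Bay-11 these were 0.1115 with 41 above 0 and 0.067 with 50 above 0. In DG75 the order was the other way. The medians there were 0.011 on chromosome 19 and 0.084 elsewhere with Bay-11, and -0.043 and 0.007 with TPCK. With TPCK in Raji 20.5% of the members had an unadjusted p under 0.05, against 6.61% of all genes, although 1 was called. With Bay-11 it was 31.1% against 18.8%, with 4 called. For TPCK in Raji, ZNF14 (0.89 ± 0.28, adjusted p = 0.361) and ZNF684 (0.79 ± 0.21, adjusted p = 0.167) had the largest differences after ZNF594. On the low side ZNF185 (-0.35 ± 0.13, 0.549), ZNF212 (-0.33 ± 0.10, 0.311) and ZNF317 (-0.29 ± 0.13, 0.67) led, so the low side was less extended.

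In Raji with TPCK, most other zinc finger families detected on every array had medians below the members' 0.128. Only that of 2 ZSCAN genes lay above it. For 18 ZBTB genes, whose proteins join zinc fingers to a BTB domain, it was 0.026 with 10 above 0, and limma called 0, with 4 at an unadjusted p under 0.05. For 9 ZNF genes with a letter behind the number it was 0.060 with 5 above 0, and for 5 ZFP genes 0.050 with 3 above 0. The 2 ZSCAN genes, at a median of 0.403, and the 2 ZKSCAN genes, at 0.058, are too few to describe as groups. With Bay-11 in Raji the medians were 0.056 for the ZBTB genes (12 of 18 above 0) and 0.091 for ZNF genes with a letter (5 of 9). For the ZFP genes it was -0.070 (2 of 5). The 2 ZSCAN and 2 ZKSCAN genes lay above the members' 0.103 there, at medians of 0.231 and 0.147. These lists are short, and their difference from the 151 was not tested.

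Of 23 symbols listed for the machinery that KRAB proteins recruit, 19 were measured, and limma called 0 in each of the 4 treatment comparisons. The list holds TASOR under its older symbol FAM208A too. At an unadjusted p under 0.05 there were 3 in Raji with Bay-11, 2 in Raji with TPCK, 7 in DG75 with Bay-11 and 1 in DG75 with TPCK, where 18.8%, 6.61%, 18.9% and 11.5% of all genes had such a p. TRIM28 averaged 9.21 with TPCK and 8.87 with Bay-11 in DG75, against 8.95 untreated, and 8.58 and 9.14 in Raji, against 8.64 untreated. The median change of the 19 genes in Raji was -0.03 with TPCK (7 of 19 above 0) and 0.15 with Bay-11 (12 of 19 above 0). Between the untreated lines 5 of the 19 (4 higher and 1 lower in DG75) differed, where 38.9% of all genes were called. The 1 lower gene, HDAC2, was not called under either other scaling, nor was HDAC1 without normalisation. CBX5, the HP1 alpha protein, averaged 9.33 ± 0.10 in DG75 and 7.98 ± 0.05 in Raji (SD, n = 3 each), a difference of 1.34 ± 0.15 (adjusted p = 1.65e-06).

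The largest body of differences lay between the untreated lines. Of the 151 ZNF genes 64 (42.4%) differed, 35 higher and 29 lower in DG75, where 38.9% of all genes were called, 20.7% higher and 18.2% lower, so the share was near the background. Of these 64, 8 differed by more than 1 on the log2 scale, 4 in each direction. Line and the numbering or handling of the arrays cannot be told apart here, since each line has 1 group of untreated arrays. CD3D had a signal of 18.8 to 22.3 in untreated DG75 and 133 to 150 in untreated Raji, and the monocyte markers a summed signal of 96.7 to 135 and 194 to 265, and their part in these differences was not tested. Under median centring 38 were higher and 4 lower, 27.8% of the members, where 28.7% of all genes were called. Without normalisation it was 31 and 3, 22.5% of the members, where 24.3% of all genes were called. The median of all genes was then 0.24 and 0.25, so the balance of directions follows the scaling. The 12 genes named next kept their direction under both, while ZNF682 and ZNF627 were not called under either and ZNF22 was not called without normalisation.

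Among genes higher in DG75, ZNF185 stood far from the rest. It encodes a LIM domain protein of the actin cytoskeleton and is no C2H2 regulator. Its signals were 8.70, 8.84 and 8.57 in DG75, against 6.22, 6.43 and 6.52 in Raji, a difference of 2.31 ± 0.13 (adjusted p = 5.16e-10). That is 4.96 times on the scale of normalised signal. All 9 DG75 arrays, treated or not, lay between 8.57 and 8.93 and all 9 Raji arrays between 5.90 and 6.52.

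The next 5 were ZNF480, ZNF302, ZNF20, ZNF275 and ZNF684. ZNF480 averaged 7.79 ± 0.21 in DG75 and 6.62 ± 0.07 in Raji (SD, n = 3 each), ZNF302 7.77 ± 0.09 and 6.68 ± 0.29, and ZNF20 6.39 ± 0.09 and 5.33 ± 0.02. Their differences were 1.17, 1.08 and 1.06. ZNF275 and ZNF684 were higher by 0.99 and 0.97, and the adjusted p of these 5 ran from 1.8e-05 to 0.00125. All stayed called under the 10 other settings and on leaving out each of the 6 arrays. None of the 5 has a second kept probe to set beside the first.

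Among genes lower in DG75, ZNF706 led. It is a small protein known in mouse embryonic stem cells for its part in the exit from self-renewal. Its signals were 6.79, 7.10 and 6.52 in DG75, against 8.08, 8.20 and 8.48 in Raji, and it was lower by 1.45 ± 0.16 on the log2 scale (limma log2 difference -1.45, adjusted p = 1.35e-06). A second ZNF706 probe, also detected on all 18 arrays, differed by -1.58. ZNF827, which recruits the NuRD complex to telomeres in cells that maintain them without telomerase, averaged 7.04 ± 0.19 in DG75 and 8.42 ± 0.11 in Raji (SD, n = 3 each), a difference of -1.38 ± 0.32 (adjusted p = 0.00257). ZNF165 gave 6.80, 6.82 and 6.80 in DG75, against 7.81, 7.78 and 7.84 in Raji (-1.01 ± 0.13, adjusted p = 8.17e-06).

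ZNF682 (-1.02 ± 0.30, adjusted p = 0.0126), ZNF627 (-0.99 ± 0.20, 0.000626) and ZNF22 (-0.97 ± 0.13, 8.57e-06) completed the 6 largest falls. ZNF22 and ZNF627 have second probes, which differed by -1.20 and -0.86, and a second ZNF682 probe, detected on 9 arrays, differed by -1.46. The ZNF682 call was lost without array 14 (adjusted p = 0.052). Over the 43 members with a second kept probe, 48 probes in all, 38 probes had the sign of the main probe between the lines. Over the 4 treatment comparisons it was 30 to 34 of 48, and 27 and 36 of 48 for the Bay-11 and TPCK response differences.

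**Figure D3:**
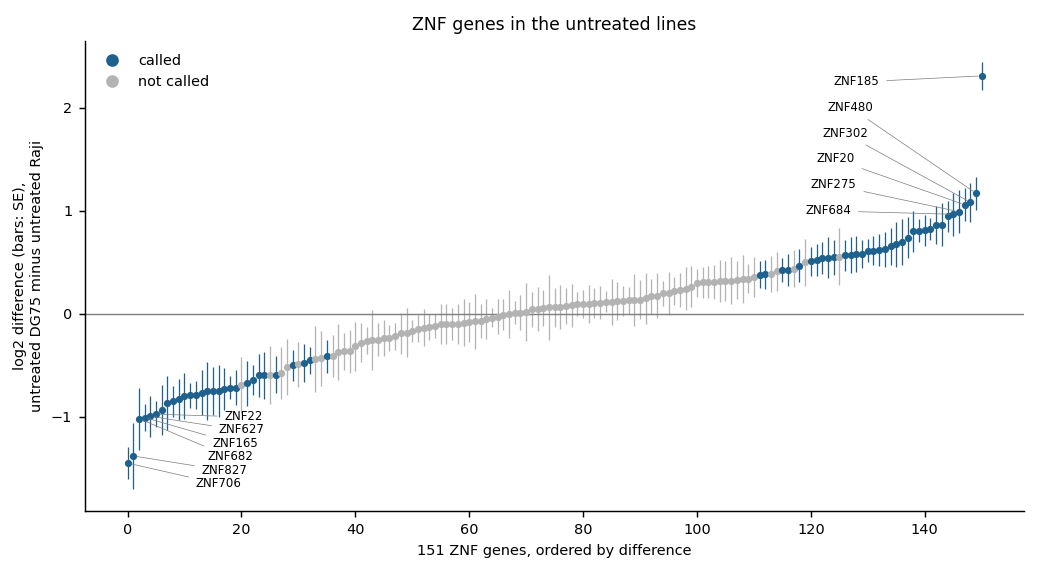
Log2 difference between untreated DG75 and untreated Raji (vertical axis, bars are the SE of the limma model) for the 151 ZNF genes in rank order. Called genes are blue, 35 above and 29 below 0, and ZNF185 stands alone at 2.31.

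Of 31 ZNF genes listed for a known role, 20 are among the 151, and between the lines 4 were higher, 7 lower and 9 not called, where 38.9% of all genes were called, 20.7% higher and 18.2% lower. ZNF622, a factor of large ribosomal subunit maturation, averaged 10.63 ± 0.09 in DG75 and 9.80 ± 0.08 in Raji (SD, n = 3 each), a difference of 0.82 ± 0.11 (adjusted p = 9.04e-06). ZNF274, which guides SETDB1 to zinc finger gene clusters, was higher by 0.61 ± 0.11 (adjusted p = 0.000268). ZNF143, an activator bound at many promoters, was higher by 0.55 ± 0.17 (0.0178). ZNF318, which in mouse B cells permits the joint expression of IgM and IgD, was higher by 0.54 ± 0.16 (0.0113). All 4 stood higher in DG75 with no overlap, and stayed called under both other scalings.

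The 7 that were lower in DG75 were ZNF706 and ZNF165, given above, and ZNF652, ZNF217, ZNF281, ZNF263 and ZNF593. ZNF652, a repressor, differed by -0.86 ± 0.26 (adjusted p = 0.0141). ZNF217, a breast cancer oncogene product found with the CoREST complex, gave 8.02, 8.02 and 8.24 in DG75, against 8.73, 8.49 and 9.26 in Raji (-0.73 ± 0.20, adjusted p = 0.00811). ZNF281, a regulator of stem cell and stress genes, differed by -0.60 ± 0.21 (0.0305) and ZNF263 by -0.45 ± 0.13 (0.0102). ZNF593, a nucleolar protein of ribosome assembly, differed by -0.41 ± 0.16 (0.0484). Of these 7, only ZNF706 and ZNF165 stayed called under median centring and without normalisation, and the other 5 were not called under either. Those not called in the first place include ZNF207, a spindle assembly protein, at 0.01 ± 0.11 (0.942), and ZNF598, the ubiquitin ligase that marks collided ribosomes, at -0.16 ± 0.11 (0.239). Of the 20, only ZNF165 in Raji with Bay-11 was called in a treatment comparison.

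The 8 members whose probes gave the highest signal, which is no order of transcript amounts, were ZNF486, ZNF430, ZNF549, ZNF14, ZNF207, ZNF428, ZNF593 and ZNF622. The first 4 lie on chromosome 19. ZNF486 gave 12.80, 12.70 and 12.80 in Raji with Bay-11 and 12.47, 12.56 and 12.38 with TPCK, against 12.17, 12.24 and 12.15 untreated. In DG75 it gave 11.71, 10.92 and 12.15 with Bay-11 and 12.02, 11.97 and 11.54 with TPCK, against 11.52, 11.71 and 11.86 untreated. The Raji groups do not overlap, while the DG75 Bay-11 arrays span more than all other DG75 arrays together.

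ZNF486, ZNF430, ZNF549 and ZNF14 varied together with ZNF652, ZNF394 and ZNF682 between arrays of the same group. After each group's mean was removed, Pearson's r over 18 arrays was 0.968 for ZNF486 with ZNF652, 0.948 for ZNF430 with ZNF14 and 0.965 for ZNF394 with ZNF549. ZNF682 was in no pair above 0.9, with r of 0.784 to 0.845 to ZNF486, ZNF430, ZNF549, ZNF14 and ZNF652. ZNF483 and ZNF786, outside these 7, were in such pairs. The SD of the 7 genes was 0.62 to 0.93 in DG75 with Bay-11, against 0.01 to 0.35 in the other groups. That group thus weighs most in the coefficients. The points share the array, its hybridisation and its normalisation, so the coefficients describe these arrays. Over all 11325 pairs of members the median r was 0.107, and 21 pairs exceeded 0.9. All 7 genes were lowest within DG75 Bay-11 on array 11 and highest on array 12. ZNF14 gave 10.01, 9.15 and 10.80 there, against 10.05, 9.79 and 10.12 in untreated DG75.

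**Figure D4:**
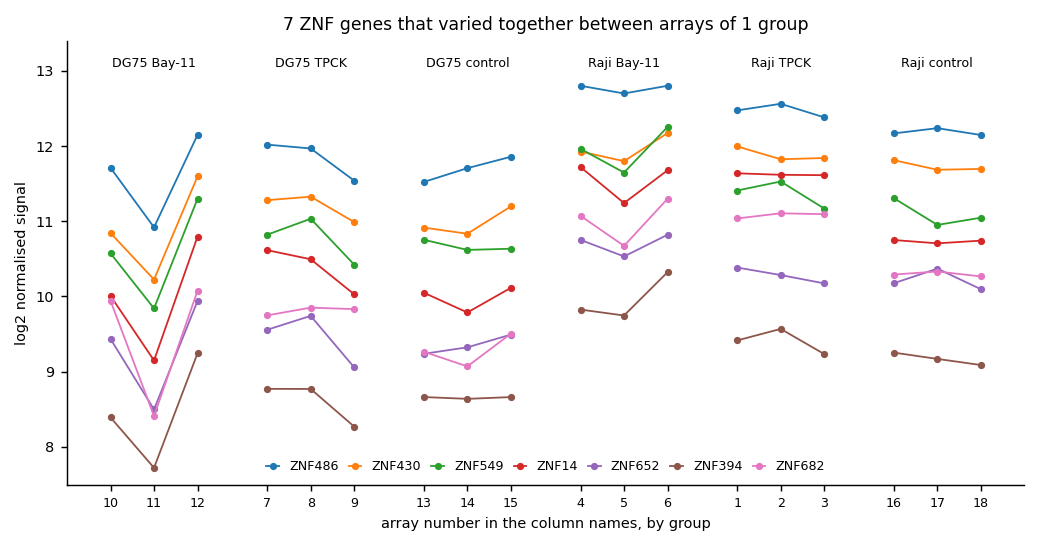
Log2 normalised signal (vertical axis) of 7 ZNF genes on each array (horizontal axis, array numbers), joined within a group. All 7 dip on array 11 and peak on array 12 in DG75 with Bay-11, and their means are higher in Raji with Bay-11 than in untreated Raji.

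In Raji with Bay-11 the 7 genes all had positive differences, and none was called. ZNF549 gave 11.96, 11.65 and 12.25, against 11.31, 10.95 and 11.05 untreated (0.85 ± 0.27, adjusted p = 0.117). ZNF14 gave 11.72, 11.24 and 11.68, against 10.75, 10.71 and 10.74 (0.81 ± 0.28, adjusted p = 0.149). Neither pair of groups overlapped, and the SE, which pools all 6 groups, includes the wide DG75 Bay-11 group. Over the 17 members in a pair with r above 0.9 the median change in Raji with Bay-11 was 0.35, and over the other 134 it was 0.075 with 57.5% above 0. With TPCK in Raji the medians were 0.14 and 0.13. These 17 were picked on these arrays, and no test was made of them.

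The response to a compound was compared between lines as the DG75 change minus the Raji change. Limma called 0 of 151 ZNF genes for Bay-11 and 0 for TPCK, where 0% of all genes were called for either. At an unadjusted p under 0.05 there were 14 members (9.27%) for Bay-11, against 6.47% of all genes, and 20 members (13.2%) for TPCK, against 5.56%. No ZNF gene is thus shown to respond differently in DG75 and Raji, the 6 called genes included. For ZNF800 the difference in TPCK response was -0.82 ± 0.20 (unadjusted p = 0.000807, adjusted p = 0.509), and for ZNF594 it was -0.73 ± 0.27 (adjusted p = 0.853).

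The largest differences in TPCK response were in ZNF684 (-1.11 ± 0.29, adjusted p = 0.587), ZNF17 (-0.86 ± 0.22, 0.587) and ZNF217 (-0.85 ± 0.28, 0.853) on the low side and ZNF185 (0.47 ± 0.19, 0.856), ZNF581 (0.47 ± 0.21, 0.887) and ZNF473 (0.45 ± 0.21, 0.895) on the high side. ZNF684 gave 6.19, 6.52 and 6.0 with TPCK in DG75, against 6.56, 6.72 and 6.40 untreated, and 6.53, 6.44 and 6.18 with TPCK in Raji, against 5.33, 5.64 and 5.81 untreated. Raji values with TPCK lay above all untreated Raji values, and DG75 values with TPCK reached into the untreated range. For Bay-11, ZNF394 (-1.0 ± 0.38, adjusted p = 0.712), ZNF549 (-0.95 ± 0.38, 0.738) and ZNF281 (-0.89 ± 0.29, 0.661) had the lowest values and ZNF177 (0.77 ± 0.33, 0.761), ZNF581 (0.61 ± 0.21, 0.678) and ZNF618 (0.59 ± 0.27, 0.762) the highest. As a group the members had a median difference of -0.134 for TPCK, with 49 of 151 above 0, against -0.004 over all genes. For Bay-11 it was -0.040 with 67 above 0, against 0.054 over all genes. Without arrays 7 and 10 these medians were -0.108 and -0.110, and the Bay-11 median turned to 0.029 without array 11 and 0.022 without array 12.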

How the data were processed

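Illumina bead arrays measured RNA in 18 samples of 6 groups. The authors deposited log2 of the raw bead signal per probe, with no normalisation per the file headers, beside a detection p-value per probe and array, also per the file headers. A second deposited table, of processed log2 values, has Raji column medians from -0.108 to 0.154 and 8 DG75 columns from 5.931 to 6.7. What its Raji values are centred on is not stated, and it served as an alternative for Raji only. Neither scanner software nor its settings are given in the sources used here. Every column of the raw table was used, and 0 were left out.

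Signals were returned to the linear scale, background-corrected by normexp with an offset of 16, quantile-normalised and put on the log2 scale in limma 3.58.1 under R 4.3.3. Of 49576 probes, 17652 with a detection p under 0.01 on at least 3 arrays were kept. GEO's platform annotation gave 1 gene symbol to 14195 of these and none to 3457. Of the 17109 probes it names, 3 carry several symbols and were not used, and 17095 matched a current gene by Entrez number, with 0 symbols updated. The brightest probe stood for a gene, giving 10697 genes. Quantile normalisation assumes equal signal distributions, so a change shared by most genes is removed. One limma model with 6 group means, 12 residual degrees of freedom and a moderated variance gave all 9 comparisons, each adjusted over all genes by Benjamini-Hochberg at 0.05. The ± of a difference is its standard error in that model. The number of arrays limits the precision.

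Genes named in a comparison were the called members, up to 6 in each direction, or else the 3 largest differences on a side, together with the 8 brightest, those nearest the detection threshold and a list with known roles. The members and lists were chosen with earlier results of these data known. Replicate numbers are given by titles and the processed table, not by the raw columns. In that table same-numbered Raji samples with TPCK and Bay-11 deviated together (r of 0.131, 0.123 and 0.232 over 8582 genes), while those of a treatment and the untreated line did not for every number. The pairing comes from these values alone. Other scalings, offsets, filters, samples left out and the processed table were tried.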

Additional observations from a re-analysis of the deposited data

How the results depend on the processing

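Among the called changes of the 6 treatment genes and the 12 genes named first between the lines, no direction reversed under any setting tried. For counts of called ZNF genes, median centring gave 30 in Raji with Bay-11, 89 in Raji with TPCK, 7 in DG75 with Bay-11, 0 in DG75 with TPCK, 1 for TPCK against Bay-11 in Raji and 42 between the lines, and no normalisation gave 28, 114, 0, 0, 0 and 34. The medians in these 6 comparisons became 0.498, 0.706, 0.403, 0.346, 0.19 and 0.347 with median centring and 0.558, 0.817, 0.405, 0.432, 0.241 and 0.358 with none, and the median difference in TPCK response became -0.377 and -0.403. Keeping genes detected on all arrays gave 2 in DG75 with TPCK. No filter on low signals gave 2 in Raji with Bay-11 and 0 in DG75 with TPCK, and an offset of 50 gave 7 and 2. Without arrays 7 and 10 there were 11 in Raji with Bay-11. A fit on the arrays compared alone, with fewer arrays behind the spread, gave 15 in Raji with Bay-11, 4 in Raji with TPCK, 0 in DG75 with Bay-11, 0 in DG75 with TPCK and 1 for TPCK against Bay-11 in Raji. Over all ZNF genes on at least 3 arrays, a longer list by construction, there were 7, 3 and 108 in Raji with Bay-11, Raji with TPCK and between the lines. The deposited processed values gave 54 and 13 in Raji with Bay-11 and TPCK (19.5% and 2.12% of all genes were called). Their medians were 0.39 and 0.396, against 0.189 and 0.219 over all genes. With the replicate block, which takes same-numbered samples as paired, the counts were 52 and 13, with medians of 0.39 and 0.396. Over all genes 19.8% and 2.09% were called with that block, with medians of 0.187 and 0.219. For TPCK against Bay-11 in Raji the count with it was 4 (2.65%), against 2.2% of all genes. No label states such a pairing. Leaving out 1 array gave 0 to 5 in Raji with Bay-11, 0 to 1 in Raji with TPCK, 1 to 16 in DG75 with Bay-11, 0 in DG75 with TPCK, 0 to 2 for TPCK against Bay-11 in Raji and 49 to 56 between the lines. The corresponding medians ran from 0.064 to 0.129, 0.094 to 0.161, -0.037 to 0.177, -0.046 to 0.018, -0.011 to 0.083 and 0.049 to 0.089. Those of TPCK against Bay-11 in DG75 ran from -0.176 to 0.02, and of the Bay-11 and TPCK response differences from -0.11 to 0.029 and -0.198 to -0.097. Where no share of all genes is given for a count, the count does not set the members against other genes. The cause was not tested except where the setting's construction is given. Dim members are limited by their distance to background, and 3 arrays a group limit every call.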
